A study of Mus musculus with 4 samples.

Results

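Cytokine genes of the interleukin and tumour necrosis factor (TNF) families, with leukaemia inhibitory factor (Lif), the oncostatin M receptor and the colony-stimulating factors, were measured in endothelium of the mouse heart, the inner cell layer of its vessels, after injection of LPS or of saline. LPS is an outer membrane component of Gram-negative bacteria that is sensed through Toll-like receptor 4. The members were chosen by gene symbol alone (Il followed by a digit, Tnfsf, Tnfrsf, Tnf, Lta, Ltb, Osm, Lif and Csf1 to Csf3 with their receptors), and 101 of the 11138 genes with a single symbol on the array matched. Of these 101, 43 were ligands, 53 receptors or receptor subunits, 3 soluble inhibitors, and 2 neither, namely the enzyme Il4i1 and the pseudogene Csf1r-ps. All 101 were kept, with no filter on low values. Osm, Lta, Il1rl1 and Il2rg were not among the measured symbols and are not analysed here.

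Hearts were taken 4 h or 24 h after an intraperitoneal injection of LPS or saline, and amplified endothelial RNA of both treatments was hybridised together to 2-colour arrays of long oligonucleotides. Each time had 2 arrays with reversed dyes, called here the Cy5 array and the Cy3 array after the dye of the LPS RNA. The sources used here do not state strain, age, LPS dose, number or pooling of animals, or how the cells were isolated. The labels do not say whether the reversed arrays carried RNA of other animals, so the 2 arrays of a time count as 1 replicate. An SD printed here (n = 2 arrays) shows the difference between the 2 arrays of a time only, not the scatter of duplicate spots. Whether it holds any variation between animals is not known, so it is no measure of biological spread.

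All values are log2 ratios of LPS over saline, where 1 stands for 2-fold higher and -1 for 2-fold lower. The sign of the Cy3 arrays was turned, on the reading that the table holds Cy5 over Cy3. The labelled dyes make that direction likely, but the table does not state it. The deposited values of the 2 arrays of a time correlated at only -0.06 over all 32448 spots at 4 h and at -0.06 at 24 h. Over oligonucleotides whose duplicate spots differed by at most 0.5 log2 units, they correlated at -0.37 at 4 h (5023 oligonucleotides) and at -0.50 at 24 h (3668 oligonucleotides). If the table held the opposite ratio, every value below would change sign. A gene is called higher or lower where both its arrays at that time were 1 log2 unit or more from 0, on the same side.

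Interleukins and TNF family ligands are secreted or membrane-bound signals between cells, and each acts through receptors made of 1 or more membrane subunits. Type I cytokine receptors signal through Janus kinases (JAK) and STAT transcription factors, and receptors of the IL-1 and TNF families recruit adaptor proteins that activate NF-kB. Endothelium exposed to LPS is known both as a source of such signals, IL-6 and the colony-stimulating factors among them, and as a target, since it carries receptors for IL-1, TNF and the IL-6 family. Soluble inhibitors bind either a ligand or its receptor, and decoy receptors bind ligands, in each case without signalling.

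At 4 h, 2 of the 101 members were called, the receptor Osmr higher and the receptor Tnfrsf13c lower, and none of the 43 ligands. That is 1.98% of the members, against 3.25% of all genes (362 of 11138), so the share of called members did not lie above that of all genes. At 24 h, 8 members were called (7.92%), against 7.00% of all genes (780 of 11138). Il1rapl2, Il31, Osmr and Il18bp were higher (4 members, against 3.48% of all genes), and Ltb, Csf2rb, Il11 and Csf2ra were lower (4 members, against 3.52%). This split of 4 higher and 4 lower became 4 and 2 without centring of the arrays, 3 and 2 with quantile normalization and 3 and 1 with scale normalization. At 4 h the split of 1 and 1 became 2 and 1 with quantile or scale normalization, by the addition of Csf1. Il15 at 4 h and Il21r at 24 h passed 2-fold on both arrays but with opposite signs, against 1.42% of all genes at 4 h and 3.69% at 24 h.

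Osmr was the single member called at both times, as were 57 of all genes (0.512%). With every spot required to pass 2-fold, 1 member, Osmr, was left at 4 h (1.57% of all genes) and 3 at 24 h (3.65% of all genes), Il1rapl2 higher and Il11 and Ltb lower (1.78% of all genes lower). The test in limma with the arrays as separate samples and Benjamini-Hochberg adjustment over all genes called 0 members at an adjusted p under 0.05 at either time. At an unadjusted p under 0.05 limma gave 2 members at 4 h (1.98%, against 4.26% of all genes) and 12 at 24 h (11.9%, against 10.1%). The table holds ratios without intensities, so a ratio near 0 cannot be told from a gene that was not detected. In RNA of a whole isolate, fewer cells of a type and less RNA per cell cannot be told apart.

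**Figure D1:**
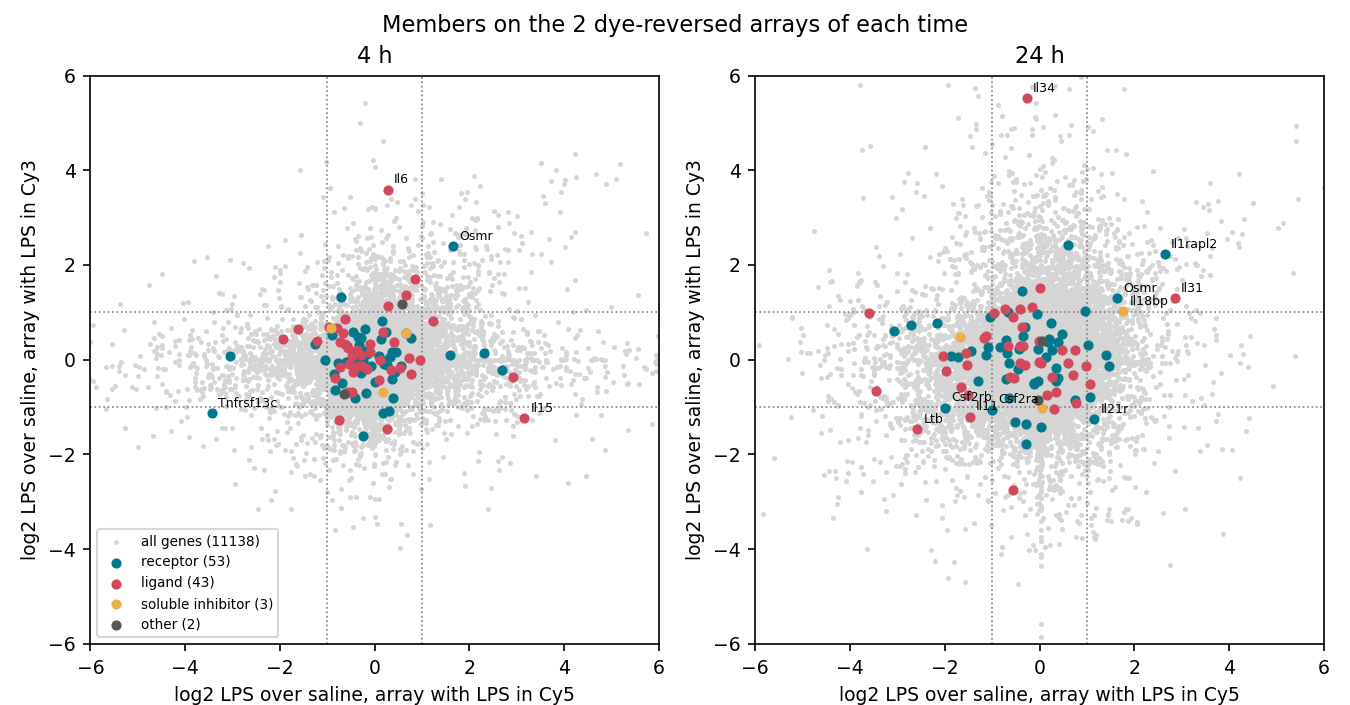
Log2 ratio of LPS over saline on the Cy3 array (vertical axis) against the Cy5 array (horizontal axis) of each time, with each member coloured by its role and all 11138 genes in grey. Dotted lines mark 2-fold, axes end at 6 log2 units on each side, beyond which 41 genes at 4 h and 11 genes at 24 h are not drawn. Osmr lies in the upper right corner region at both times, and Il6 at 4 h and Il34 at 24 h lie far from 0 on the Cy3 array alone.

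The IL-6 family, whose receptors share the gp130 subunit (Il6st) or relatives of it, held the single member called at both times. Osmr, the oncostatin M receptor subunit, which pairs with gp130 to bind oncostatin M and with another chain to bind IL-31, stood at 1.65 on the Cy5 array and 2.40 on the Cy3 array of 4 h, and at 1.63 and 1.31 on those of 24 h. All 4 arrays were above 1, and both arrays of 24 h lay below both of 4 h, the nearest values being 1.63 and 1.65. The means were 2.02 ± 0.52 at 4 h and 1.47 ± 0.23 at 24 h. Among all genes, the mean of Osmr ranked 194 from the top at 4 h and 473 at 24 h. Its duplicate spots read 2.22 and 1.09 on the Cy5 array and 2.50 and 2.29 on the Cy3 array of 4 h, so every spot was past 2-fold. At 24 h they read 1.62 and 1.65, and 1.71 and 0.91, the last short of 2-fold. In limma the unadjusted p of Osmr was 0.00447 at 4 h and 0.0156 at 24 h, with adjusted p = 0.713 and 0.425.

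The other receptor chains of this family were not called. The shared subunit Il6st read -0.25 and -1.62 at 4 h and 0.18 and 0.37 at 24 h, so its array means lay below 0 early and above 0 late. A single spot at -3.25 set the -1.62, and the other duplicate was above 0 on both early arrays, at 0.095 and 0.014. Lifr, which binds Lif together with gp130, read -0.29 and 0.47, then -1.05 and 0.91, with the arrays of each time on opposite sides of 0. The IL-6 binding chain Il6ra read 0.38 and -0.81, then -3.08 and 0.60. The value of -3.08 came from spots at -0.81 and -5.35, so a single spot set it. Il11ra2, a near-identical copy of the IL-11 receptor gene whose signal the array may share with that gene, averaged -0.47 ± 0.93 at 4 h and 0.66 ± 0.50 at 24 h. Its 2 oligonucleotides disagreed on the Cy5 array of 24 h, with spots at -0.70 and -0.46 for one and at 2.67 and 2.55 for the other. They also disagreed on the Cy3 array of 4 h, at -0.25 and 0.23 for the former and at -2.72 and -1.76 for the latter. Il27ra, the IL-27 receptor chain, was at -0.23 ± 0.07 and 0.23 ± 0.05.

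Among the ligands of the family, Il6, an inducer of the acute-phase response, read 0.27 on the Cy5 array and 3.59 on the Cy3 array of 4 h, and 0.01 and 1.52 on those of 24 h. Il6 was thus high on the Cy3 array of each time and near 0 on the Cy5 array. Both spots took part, with 3.85 and 3.33 on the Cy3 array and 0.31 and 0.24 on the Cy5 array of 4 h. Its means, 1.93 ± 2.34 and 0.77 ± 1.07, were smaller than or close to the SD of the arrays, and Il6 was not called. Il11 was lower at 24 h, at -1.48 and -1.20 with all 4 spots between -1.55 and -1.17, after 0.08 and -0.43 at 4 h. Il31, the ligand whose receptor contains the Osmr chain, was higher at 24 h at 2.85 and 1.30, but its spots on the Cy3 array read 3.47 and -0.86. Lif was not called at either time, with means of -0.62 ± 0.09 and -0.19 ± 0.67. Its 4 spots ran from -2.00 to 0.60 on the Cy5 array and from -2.17 to 0.01 on the Cy3 array of 4 h. The small SD at 4 h does not show this spread.

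The bases before the start of Osmr, Il6 and Ltb are shown because Osmr was called at both times, Il6 carries a motif of the pathway named above and Ltb was the one called member with a motif match. They are the 250 bases before the RefSeq start (GRCm38.p6), for Osmr chr15:6874314-6874563 on the minus strand, for Il6 chr5:30012864-30013113 on the plus strand and for Ltb chr17:35194257-35194506 on the plus strand. Capitals mark matches on either strand to the STAT motif TTCNNNGAA (also called GAS), the interferon-stimulated response element and the NF-kB consensus.
Osmr: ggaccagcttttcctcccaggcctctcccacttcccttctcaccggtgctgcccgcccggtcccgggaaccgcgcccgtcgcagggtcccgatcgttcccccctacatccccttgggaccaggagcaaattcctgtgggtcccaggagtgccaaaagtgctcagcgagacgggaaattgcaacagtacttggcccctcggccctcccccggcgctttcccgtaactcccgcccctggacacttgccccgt
Il6: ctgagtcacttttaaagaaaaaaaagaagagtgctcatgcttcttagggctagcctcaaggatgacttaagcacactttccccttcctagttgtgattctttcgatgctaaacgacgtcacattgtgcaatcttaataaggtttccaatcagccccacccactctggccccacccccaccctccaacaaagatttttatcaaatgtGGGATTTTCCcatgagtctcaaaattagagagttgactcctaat
Ltb: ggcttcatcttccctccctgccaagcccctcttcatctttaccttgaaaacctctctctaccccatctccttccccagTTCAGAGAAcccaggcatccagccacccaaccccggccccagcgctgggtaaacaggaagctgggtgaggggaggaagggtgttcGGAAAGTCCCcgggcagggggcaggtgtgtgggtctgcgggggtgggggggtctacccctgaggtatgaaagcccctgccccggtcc
Il6 held an NF-kB match beginning at position -44 from the start, Ltb a STAT match at -172 and an NF-kB match at -87, and Osmr none of the 3 motifs in this window. Of the 9 members called at 4 h or 24 h, 8 had a promoter in the table, and 1 of these, Ltb, held a match. An absent match says only that these letters are not in this window. Over all 32851 promoters of this length, 7.02% held the STAT motif, 2.98% the interferon element and 3.90% the NF-kB consensus. Of the 95 promoters of 78 members, 11 (11.6%), 4 (4.21%) and 7 (7.37%) did. The STAT motif was in 9 of 49 receptor promoters and in 1 of 39 ligand promoters, a description of these letters only.

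The IL-1 and IL-18 family includes the early alarm signals IL-1 and IL-18, their receptors and their natural inhibitors. None of its 16 members was called at 4 h, and 2 were at 24 h. Il18bp, which neutralises IL-18 in solution, read 0.67 and 0.57 at 4 h and 1.77 and 1.02 at 24 h. Both late arrays lay above both early ones, but the means, 0.62 ± 0.07 and 1.40 ± 0.53, differed by only 0.78. Of its spots on the late Cy3 array, 1 was at 0.80 and the other at 1.25. Without centring Il18bp was still called, and with quantile or scale normalization it was not. Il18 itself was at -0.16 ± 0.58 and 0.48 ± 0.90, and its receptor chains Il18r1 and Il18rap were at -0.58 ± 0.38 and -0.15 ± 0.62 at 4 h and at -0.28 ± 0.78 and 0.11 ± 0.06 at 24 h.

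Il1rapl2, an orphan relative of the IL-1 receptors known from the nervous system, was the called member furthest from 0 at 24 h. It read -0.22 and 0.18 at 4 h and 2.64 and 2.24 at 24 h. Its 4 late spots lay between 2.23 and 2.65, so the duplicates and the dyes gave nearly the same ratio. Every late spot lay at least 1 log2 unit above every early spot, the single member for which this held. The share of all genes for which it held is not given here. Its mean of 2.44 ± 0.29 ranked 84 from the top among all genes at 24 h. In limma its unadjusted p was 0.00159 at 24 h, with adjusted p = 0.391. No level of this gene can be read from a ratio.

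The ratios of IL-1 itself were close to 0. Il1b, measured by 2 oligonucleotides, was at 0.11 ± 0.30 at 4 h and 0.19 ± 0.29 at 24 h, and Il1a at 0.38 ± 0.30 and -0.21 ± 0.13. The antagonist Il1rn read -0.92 and 0.67, then -1.68 and 0.49, with the Cy5 array low and the Cy3 array high at both times. The signalling receptor Il1r1 read 0.45 and 0.16 at 4 h and -2.70 and 0.73 at 24 h. Its -2.70 came from spots at -4.81 and -0.59. The decoy receptor Il1r2 was at -0.42 ± 0.51 and 0.45 ± 0.72, and the co-receptor Il1rap at -0.22 ± 0.34 and 0.51 ± 0.06. Il33, an alarm signal stored in the cell nucleus, was at 0.38 ± 0.48 and -0.07 ± 1.19. Its early Cy5 value came from spots at 2.97 and -1.53, and its late Cy3 value from spots at -1.70 and -0.13. Of the IL-36 branch, the ligand Il1f6 was at 0.40 ± 0.02 and -1.11 ± 0.77, and the receptor Il1rl2 read 2.31 and 0.14, then -1.87 and 0.08. One duplicate of Il1rl2 set both far values, with spots at -0.23 and 4.85 behind the 2.31 and at -0.12 and -3.63 behind the -1.87. The late Cy5 value of Il1f6, -1.65, likewise came from spots at -0.32 and -2.99.

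**Figure D2:**
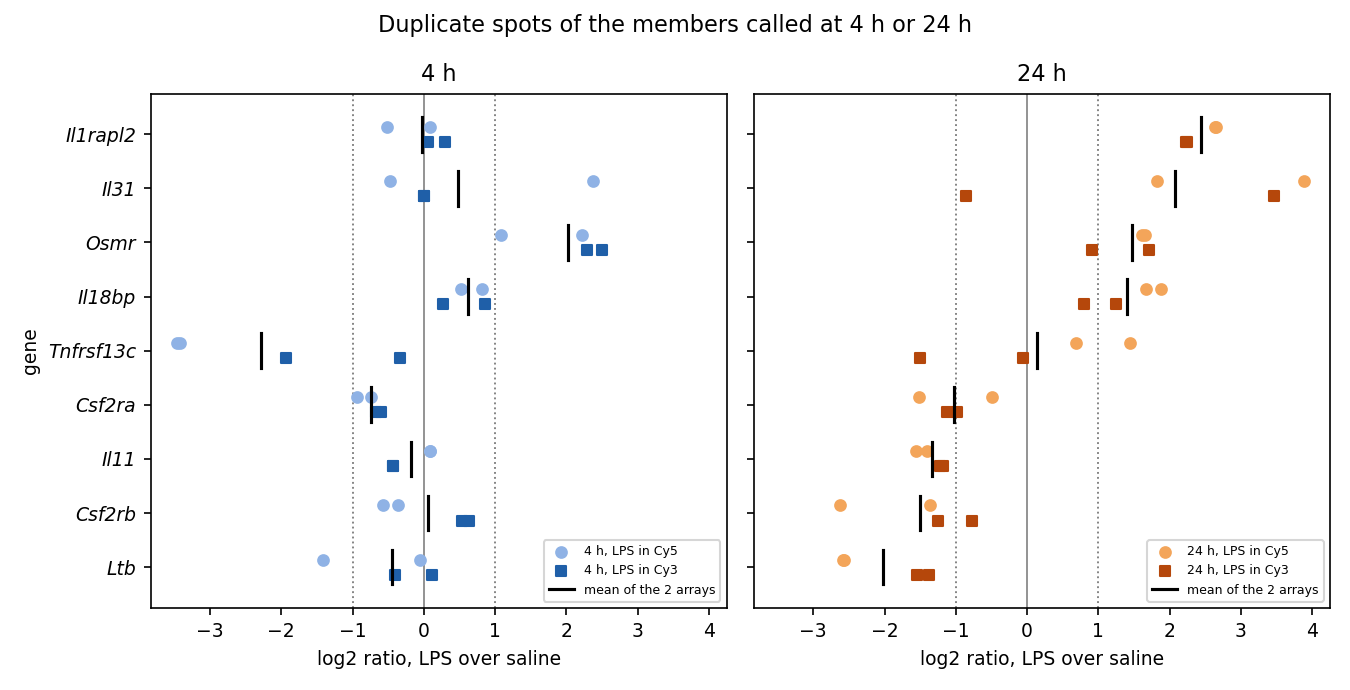
Log2 ratio of LPS over saline of each duplicate spot of the 9 members called at 4 h or 24 h, with circles for the Cy5 array, squares for the Cy3 array, black bars for the mean of the 2 arrays and dotted lines at 2-fold. All 4 spots of Osmr are past 2-fold at 4 h, and all 4 spots of Il1rapl2, Ltb and Il11 are past it at 24 h, while the spots of Il31 and Tnfrsf13c on the Cy3 array lie apart.

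The colony-stimulating factors drive the production and survival of granulocytes and macrophages, and the receptors of GM-CSF (Csf2), IL-3 and IL-5 share the beta chain Csf2rb. The 3 ligands were above 0 on both arrays of 4 h without being called. Csf3, the granulocyte factor G-CSF, read 0.86 and 1.70, Csf1, the macrophage factor, 1.24 and 0.82, and Csf2 0.67 and 1.36. Each thus passed 2-fold on 1 array, and all 3 passed 1.5-fold on both, a bound that 8.45% of all genes passed at 4 h. At 24 h Csf3 read -1.16 and 0.46, Csf1 -0.42 and 0.29 and Csf2 -2.04 and 0.09, and all 3 were called lower at 24 h than at 4 h. The value of 1.36 for Csf2 came from spots at 0 and 2.71, so its passing of 2-fold and of 1.5-fold on that array rested on a single spot. The value of -2.04 for Csf2 came from spots at -4.72 and 0.65. The values of Csf1 at 4 h also came from uneven spots, at 0.93 and 1.55 on the Cy5 array and at 0.16 and 1.47 on the Cy3 array.

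None of the receptor chains of this branch was called higher. Csf2ra, the GM-CSF binding chain, read -0.84 and -0.64 at 4 h and -1.01 and -1.05 at 24 h, below 0 on all 4 arrays and just past 2-fold at 24 h. Without centring it was not called. Csf2rb read -0.47 and 0.58 at 4 h and -2.00 and -1.01 at 24 h, also just past 2-fold on the late Cy3 array, and it too was not called without centring. The closely related copy Csf2rb2, with which Csf2rb may share signal, was at -0.19 ± 1.00 and 0.08 ± 0.60. Csf3r was at -0.32 ± 0.40 and -0.87 ± 0.60, Il3ra at -0.46 ± 1.11 and -0.83 ± 1.27 and Il5ra at -0.44 ± 0.37 and -0.82 ± 0.77. The macrophage factor receptor Csf1r was at 0.08 ± 0.12 and -0.70 ± 1.02, and the pseudogene Csf1r-ps at -0.68 ± 0.05 and -0.44 ± 0.58. The -0.70 of Csf1r rested on a single spot at -2.76 on the late Cy3 array. The other late spots of Csf1r and both its early Cy3 spots held a ratio of exactly 1 before centring. Of the 14 genes of this group, 5 lay below 0 on both arrays of 24 h and none above, against 26.1% of all genes below and 26.1% above.

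Il34, the other ligand of the macrophage factor receptor, read -0.36 and -0.13 at 4 h and -0.27 and 5.52 at 24 h. It was the highest member by mean at 24 h (2.62 ± 4.09), but 1 array set that value, with spots at 5.65 and 5.39. Il3 read -1.94 and 0.43 at 4 h and Il5 -0.96 and 0.70, so neither kept its side of 0. Most of these genes are used by myeloid cells. Of the 11 measured monocyte and macrophage markers, which include Csf1r itself, 0 were called at either time. Their medians were -0.35 and 0 on the Cy5 and Cy3 arrays of 4 h, and -0.35 and -0.46 on those of 24 h. Of 11 neutrophil markers, none was called at 4 h, and at 24 h 4 were called (36.4%, against 7.00% of all genes). These were S100a8 (2.59 ± 1.17), S100a9 (1.55 ± 0.08) and Fpr2 (1.20 ± 0.08) on the higher side, and Ngp (-1.62 ± 0.82) on the lower. The medians of the 11 were -0.68 and 0.49 on the Cy5 and Cy3 arrays of 24 h. At that time 4 of the 11 lay above 0 on both arrays and 4 below. The part of these markers in the values of Csf2ra and Csf2rb was not tested.

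The TNF superfamily, trimeric ligands with receptors that recruit TRAF adaptors or death domain proteins, had 28 members, of which 1 was called at each time. Ltb, lymphotoxin beta, which anchors lymphotoxin alpha on the cell surface, read -0.74 and -0.15 at 4 h and -2.58 and -1.46 at 24 h. Both late arrays lay below both early ones, and the 4 late spots ran from -2.58 to -1.38. Its mean of -2.02 ± 0.79 ranked 187 from the bottom among all genes at 24 h, with an unadjusted limma p of 0.00784 and adjusted p = 0.391. Ltb is mainly expressed by lymphocytes. Of 12 measured lymphocyte markers, none was called at 4 h and 1 at 24 h, Cd5 at -2.00 ± 1.00, while Cd4 read -2.00 and 2.32 on the 2 late arrays. The medians of the 12 were -0.61 and 0.10 on the Cy5 and Cy3 arrays of 24 h. Their part in the value of Ltb was not tested.

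Tnf itself was not called. It read -0.47 and 0.09 at 4 h and -1.54 and -0.11 at 24 h, so 3 of 4 arrays were below 0. Its receptors were close to 0, with Tnfrsf1a, the widely expressed death domain receptor, at 0.29 ± 0.22 and 0.38 ± 0.01 and Tnfrsf1b at -0.02 ± 0.19 and -0.41 ± 0.97. Tnfrsf1a was above 0 on all 4 arrays, between 0.14 and 0.44, as the mean of 2 oligonucleotides that differed. One had identical duplicates between -0.063 and 0.014 on every array, and the other had spots between 0.27 and 0.94. Tnfrsf12a, the receptor of TWEAK, read -0.72 and 1.32, then -0.29 and -1.77, and its ligand Tnfsf12 was at -0.10 ± 0.27 and -0.46 ± 0.11. Tnfsf10 (TRAIL), a ligand that can trigger apoptosis, read -1.22 and 0.39, then -0.96 and 0.99, low on the Cy5 array and high on the Cy3 array each time.

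Tnfrsf13c, the receptor on B cells that binds BAFF, was called lower at 4 h at -3.44 and -1.13 and read 1.06 and -0.78 at 24 h. Its spots on the early Cy3 array were -0.33 and -1.93, so the call rested on uneven spots, and its mean of -2.29 ± 1.63 ranked 75 from the bottom of all genes. Its ligand Tnfsf13b was at 0.07 ± 0.39 and -0.30 ± 0.64, and the related ligand Tnfsf13 (APRIL) read -0.75 and -1.27, then 1.07 and -0.52. The pair of RANK (Tnfrsf11a) and RANK ligand (Tnfsf11), which governs osteoclasts, did not run in parallel. Tnfrsf11a read 0.66 and 0.56 at 4 h and -0.70 and -0.42 at 24 h, with the means of each time on their own side of 0. Its 2 oligonucleotides disagreed on the Cy3 array of 4 h, where one read -0.90 and -1.01 and the other 4.15 and 0, so a single spot set that sign. Tnfsf11 was at -0.66 ± 0.06 and -0.25 ± 0.24, and the decoy receptor Tnfrsf11b (osteoprotegerin) at -0.59 ± 0.14 and 0.10 ± 0.17. Tnfsf8, the CD30 ligand, was the lowest member by mean at 24 h at -2.06 ± 1.99, from -3.46 and -0.65, while its receptor Tnfrsf8 was at -0.32 ± 0.28.

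Co-stimulatory members of the family were not called. Tnfsf4 (OX40 ligand), which activated endothelium can present to T cells, was at -0.20 ± 0.10 at 4 h and -1.13 ± 0.55 at 24 h, and its receptor Tnfrsf4 at -0.61 ± 0.28 and -0.05 ± 0.57. Tnfrsf18 (GITR) averaged 0.85 ± 1.05 and -0.33 ± 0.19. On the Cy5 array of 4 h one of its oligonucleotides read -0.40 and -0.33 and the other 2.71 and 4.38. Tnfrsf22, a decoy-type receptor similar in sequence to Tnfrsf23, was at 0.09 ± 0.01 and -0.92 ± 0.55, and Tnfrsf23 at 0.27 ± 0.15 and 0.54 ± 1.29. At 24 h 13 of the 28 genes lay below 0 on both arrays and 2 above, against 26.1% of all genes below and 26.1% above. At 4 h these counts were 9 and 5, against 25.6% of all genes below and 24.3% above at that time.

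In the common gamma chain and IL-13 group, which holds lymphocyte growth factors and the IL-4 and IL-13 system, 0 of 16 members were called at either time. The IL-4 receptor chain Il4ra came closest. It read 0.78 and 0.45 at 4 h and 0.97 and 1.02 at 24 h, above 0 on all 4 arrays, with means of 0.62 ± 0.23 and 0.99 ± 0.04. Its ligands were not called, with Il4 at -0.09 ± 0.40 and -0.71 ± 1.19 and Il13 at -0.32 ± 0.32 and -1.11 ± 1.22. Il15, which sustains natural killer cells and memory T cells and is presented by its receptor chain Il15ra, read 3.16 and -1.23 at 4 h, and at 24 h its 2 spots were identical within each array, at -0.02 and -0.05. Il15ra was at 0.41 ± 0.23 and -0.27 ± 0.58. Il21r read 1.16 and -1.25 at 24 h, from spots between -2.62 and 2.83. The lymphocyte factors Il2, Il7, Il9 and Il21 had means between -0.48 and 0.33.

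In the IL-10 and IL-12 families, none of 10 members was called. Il10, which restrains inflammatory cytokine production, read -0.74 and 0.38, then -3.60 and 0.99, with a single spot at -6.15 behind the low value. Its binding receptor chain Il10ra read 0.19 and -0.09, then 0.61 and 2.42, and the last value came from spots at -0.41 and 5.24. The shared chain Il10rb was at 0.49 ± 0.47 and 0.20 ± 0.71. Il23a, the specific subunit of IL-23, was at 0.71 ± 0.61 and -0.02 ± 0.06, and the subunits Il12a and Il12b had means between -0.58 and 0.17. All spots of Il23a at 24 h held a ratio of exactly 1 before centring, so its value there shows only the shift by centring. Its Cy3 value at 4 h, 1.14, came from spots at 2.29 and 0. Il20 read 2.91 and -0.36 at 4 h, high on the Cy5 array alone.

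The IL-17 family, whose receptors act on stromal and endothelial cells, and IL-16 had no called member of 7. Il17a was below 0 on all 4 arrays, at -0.60 ± 0.32 and -0.49 ± 0.18, and the shared receptor chain Il17ra was at -0.14 ± 0.26 and -0.63 ± 1.15. Il17b read -0.16 and -0.19, then -0.57 and -2.76. Il17rc read 2.68 and -0.21 at 4 h and 1.40 and 0.11 at 24 h. Il17rd, an inhibitor of growth factor signalling as well as a receptor relative, read -3.05 and 0.07 at 4 h. At 4 h both were thus far from 0 on the Cy5 array alone. Their spots there were uneven, at 0.44 and 4.92 for Il17rc and at -5.07 and -1.04 for Il17rd.

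Ligands and receptors were then set side by side. The 43 ligands had a median of the array means of -0.10 at 4 h and -0.07 at 24 h, the 53 receptors -0.02 and -0.07, and all genes -0.02 and -0.02. On the Cy5 and Cy3 arrays of 4 h, the ligand median minus the receptor median was -0.09 and 0.04, and on those of 24 h it was -0.13 and -0.20. The difference thus changed sign between the arrays of 4 h and was below 0 on both of 24 h. Of the ligands, 0 were called at 4 h and 3 at 24 h (6.98%), and of the receptors, 2 (3.77%) and 4 (7.55%), against 3.25% of all genes at 4 h and 7.00% at 24 h. Of the 3 soluble inhibitors, Il18bp was called at 24 h and Il1rn and Il1f5 were not. With the arrays scaled by quantile normalization the medians at 24 h were -0.07 for ligands and -0.05 for receptors.

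The medians differed more between the dyes than between the roles. The median of all members was -0.22 on the Cy5 array and 0.06 on the Cy3 array of 4 h, and -0.30 and 0.10 on those of 24 h, with all genes centred at 0. With the sign as deposited, all 4 medians were below 0, and between 54.5% and 62.4% of the members lay below 0, against 47.8% to 50% of all genes. On the Cy5 array of 24 h alone, 24.8% of the members were at least 2-fold lower, against 17.6% of all genes, and 9.90% at least 2-fold higher, against 13.0%. On the Cy3 array of 24 h these shares were 11.9% and 12.9%, against 13.5% and 15.6% of all genes. The members of the 2 arrays lay on the same side of 0 in 46.5% of cases at 4 h and 45.5% at 24 h, against 49.9% and 52.3% of all genes. The correlation of the turned values of the 2 arrays over the 101 members was 0.07 at 4 h and 0.11 at 24 h, against 0.12 at both times over all genes, as a description.

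**Figure D3:**
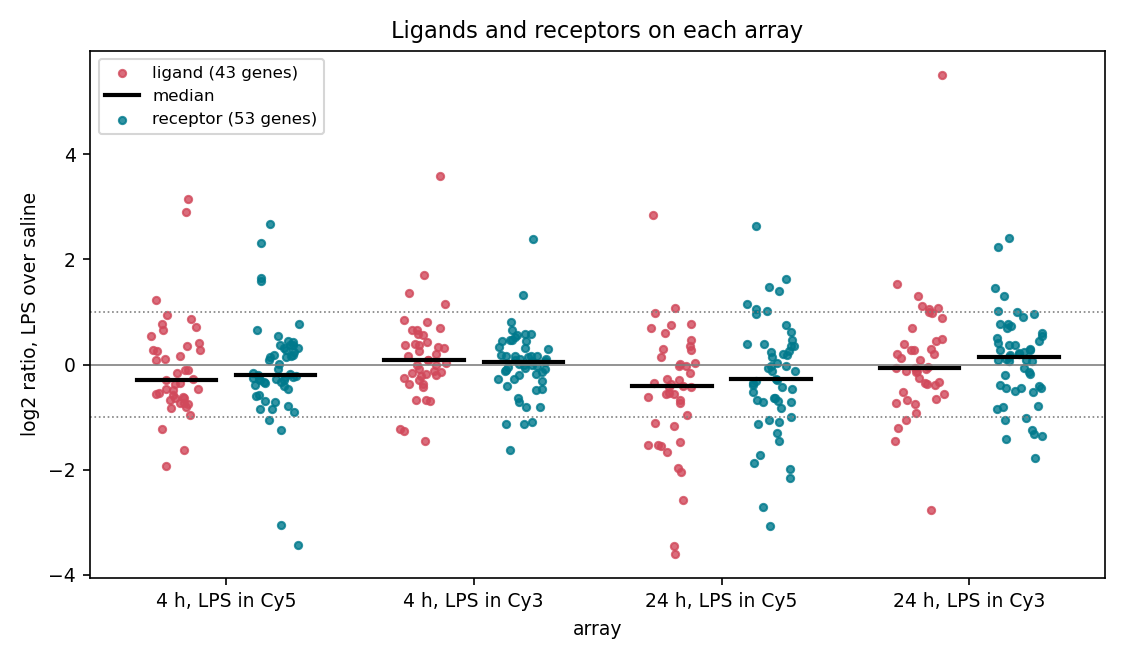
Log2 ratio of LPS over saline of each of the 43 ligands and 53 receptors on each of the 4 arrays, with black bars for the median of the role and dotted lines at 2-fold. The medians of both roles are below 0 on the Cy5 arrays, at -0.29 and -0.20 at 4 h and at -0.41 and -0.27 at 24 h.

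The last comparison set 24 h against 4 h, and a gene was called where its means were 1 log2 unit or more apart and the arrays of the times did not overlap. Of the members, 20 were called (19.8%), against 19.8% of all genes (2201 of 11138), 7 of them higher at 24 h (9.43% of all genes) and 13 lower (10.3% of all genes). Of the 10 ligands called, 2 were higher and 8 lower, and of the 10 receptors, 5 and 5. Il1rapl2 differed by 2.46, Tnfrsf13c by 2.43, Il31 by 1.60, Il10ra by 1.46, Tnfsf13 by 1.29, Il6st by 1.21 and Il11ra2 by 1.13. For Il11ra2 only the oligonucleotide with early Cy3 spots at -2.72 and -1.76 rose, and the other did not. Tnfsf8 was lower at 24 h with a difference of -2.17, Il1rl2 with -2.12, Csf2 with -1.99, Csf3 with -1.63, Ltb with -1.57, Csf2rb with -1.56 and Il1f6 with -1.51. Il17b, Tnfrsf18, Tnfrsf11a, Il11, Csf1 and Tnfrsf22 followed, with differences between -1.49 and -1.01. Osmr, with a difference of -0.55, was not called between the times.

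When the difference was taken within each dye and had to reach 2-fold in both, 7 members were called. Csf2, Csf2rb, Csf3, Ltb and Tnfsf8 were lower and Il1rapl2 and Il31 higher at 24 h, all of them among the 20. The share of all genes under this rule is not given here. The count thus does not show whether members passed it more often than other genes. limma called 0 members between the times at an adjusted p under 0.05 and 1, Il1rapl2, at an unadjusted p under 0.05, against 5.73% of all genes. The number of arrays limits the precision of each difference.

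**Figure D4:**
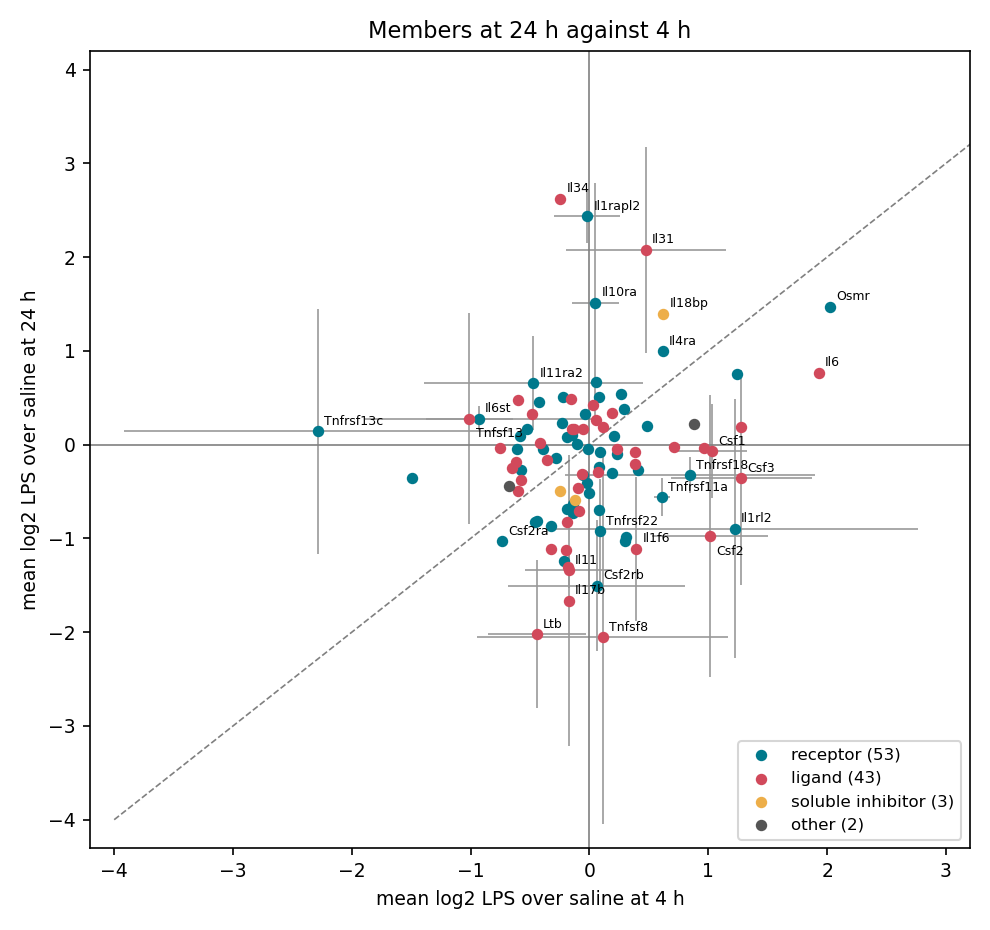
Mean log2 ratio of LPS over saline at 24 h (vertical axis) against 4 h (horizontal axis) for the 101 members, coloured by role, with grey bars of 1 SD of the 2 arrays for the 20 members called between the times and a dashed line of equal values. Osmr lies far to the upper right, Il1rapl2 and Il34 are high at 24 h with means near 0 at 4 h, and Csf1, Csf2 and Csf3 lie to the right of 0 at 4 h and at or below 0 at 24 h.

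Genes that carry these signals inside the cell were read from lists of their pathways. Of 22 measured JAK-STAT genes, 1 was called at 4 h and 1 at 24 h, in both cases Stat2, a factor of the interferon response, at 2.54 ± 0.30 and 2.09 ± 0.10. The Janus kinases, the other STAT genes and the SOCS feedback inhibitors on the list were not called. Of 22 adaptors of the TNF and IL-1 receptors, 1 was higher at 4 h, Birc3 at 2.19 ± 1.47, an inhibitor of apoptosis bound to TRAF2. At 24 h 2 were higher, the necroptosis kinase Ripk3 at 2.25 ± 0.39 and Tab2, which couples TRAF6 to the kinase TAK1, at 2.03 ± 1.09. Of 15 NF-kB genes, the subunit Rela at 1.57 ± 0.28 and Tnip1, which works with A20, at 2.69 ± 0.51 were higher at 4 h. At 24 h Tnip1 was higher at 1.87 ± 0.22 and Tnfaip3, the gene of A20, lower at -1.80 ± 0.36. The medians of the array means of the NF-kB list were 0.63 at 4 h and -0.22 at 24 h, and those of the JAK-STAT list -0.0017 and -0.12, beside -0.02 and -0.02 over all genes. Array by array, the NF-kB median was 0.011 on the Cy5 and 0.59 on the Cy3 array of 4 h, and -0.21 and 0.047 on those of 24 h.

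The endothelial label was read against 13 measured markers, but ratios do not show levels, so whether the markers were abundant could not be checked. Of these markers Cldn5 was higher and Eng and Kdr lower at 4 h, and Eng and Kdr were higher at 24 h. Of 12 cardiomyocyte markers, none was called at 4 h and 1 at 24 h, Ryr2 at -1.40 ± 0.11, and of 8 fibroblast markers, none at 4 h and 1 at 24 h, Mgp at 1.80 ± 0.91. The 50 members not named by rule had means between -0.68 and 0.88 at 4 h and between -1.13 and 0.67 at 24 h. Some of them are named above as partners of other members.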

How the data were processed

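The members and gene lists were chosen with earlier results of these data known. The deposited table held log2 ratios of 32448 spots on each of 4 arrays. The sources used here do not state background correction, dye normalization or spot filters. Names came from the platform annotation (24344 spots with 1 symbol, 98 with several, 8006 not listed), and all 101 members matched the RefSeq table of GRCm38.p6 by gene identifier, with 0 symbols changed. Signs of the arrays with LPS in Cy3 were turned. Gene values were means over oligonucleotides (92 members had 1, 9 had 2), themselves means of 2 adjacent duplicate spots. Arrays were median-centred over genes. A gene was called at 2-fold or more on both arrays on the same side. Named were members called at or between the times, 2-fold in opposite directions, among the 5 highest or lowest means at a time, or on a preset list (51 in all). Families were drawn from textbook knowledge. limma 3.58.1 in R 4.3.3 fitted all genes over 4 arrays. The calls and limma were tested on simulated data. Of the 220 member spots, 2 to 15 per array held a ratio of exactly 1 (log2 within 1e-06 of 0). Alternatives covered the sign, centring, scaling, ratios of exactly 1, spot summaries, the threshold, single arrays and limma.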

Additional observations from a re-analysis of the deposited data

Results flagged for a closer look

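In 6 named members both arrays of 4 h lay on one side of 0 and both arrays of 24 h on the other. The difference of 24 h minus 4 h was 1.21 for Il6st, -0.59 for Il1a, -1.51 for Il1f6, -1.17 for Tnfrsf11a, -1.17 for Tnfrsf18 and -1.01 for Tnfrsf22. In each of the 6, at least 1 spot lay on the other side of 0 from its array's mean. A single spot at -3.25 set the Cy3 value of Il6st at 4 h, and a single spot at 4.15 that of Tnfrsf11a. For Tnfrsf18 1 oligonucleotide read 2.71 and 4.38 on the Cy5 array of 4 h and the other -0.40 and -0.33. limma tested the difference and gave 0 members at an adjusted p under 0.05, these 6 included. Over all genes, 12.3% showed such a change of side, against 7.92% of the members (8 of 101), so the pattern was not more frequent among the members.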

How the results depend on the processing

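With 1 replicate per time and no intensities, the precision rests on the agreement of dyes and spots. The numbers of called members at 4 h, at 24 h and between the times were 2, 8 and 20. They became 1, 1 and 8 with the sign as deposited, where none of the members called above was called and the mean of Osmr at 4 h was -0.37 and that of Csf2ra at 24 h 0.024, since a pair of like values then cancels. They were 1, 3 and 1 where every spot had to be past 2-fold, 0, 4 and 2 among members whose duplicate spots agreed (48, 41 and 23 members measured), and 0, 0 and 0 in limma. At 24 h, quantile normalization gave 5, scale normalization 4 and leaving out ratios of exactly 1 gave 5. A 1.5-fold threshold gave 9 at 4 h and 13 at 24 h, against 8.45% and 16.2% of all genes. With dye orientation as a block, 7 were called between the times. With a single array, the counts were 14 and 14 at 4 h, 25 to 35 at 24 h and 25 to 33 between the times. The ligand medians then ran from -0.29 to 0.09 at 4 h and from -0.41 to -0.063 at 24 h, and the receptor medians from -0.20 to 0.049 and from -0.27 to 0.14. On the Cy5 array of 4 h, 6.93% of the members were 2-fold higher and 6.93% lower, against 11.4% and 9.37% of all genes. On the Cy3 array of 4 h these shares were the same for the members, against 7.00% and 5.69% of all genes. Counts given in this section without a share of all genes show only how the number of called members moved. Osmr was called at both times without centring, with either normalization and without ratios of exactly 1. Where counts fell under a stricter rule, fewer spots or genes could pass, and the cause of the other shifts was not tested.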
